A study of Homo sapiens with 12 samples.

Results

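The HepG2 line Z9 was compared with the HepG2 line Z5. Each had received a different vector directed at the same gene, ZHX3, and each gave 3 wells, which is 6 of the 12 libraries of the study. HepG2 is an established human hepatoma line that keeps much of the expression of a liver cell. RNA was sequenced from 4 such lines, and samples were assigned by their titles. Z5 had received the CRISPR vector sgZHX3-5 and Z9 the vector sgZHX3-9, both by lipofection, with blasticidin selection starting 48 h later. Both lines carry the label ZHX3-depleted. The other 6 libraries are the 3 wells of Z2, which received sgZHX3-2, and the 3 wells of Empty, which received an empty CRISPR construct and is labelled WT. Wells of a line are named a, b and c. They are cultures of the same line, so each p-value measures the spread between wells and not that between lines made separately. Each vector is represented by 1 line, so a difference between Z9 and Z5 cannot be told apart from any other difference in the history of these lines. The sources used here do not give whether a line is a clone or a pool, where the guides cut or what kind of CRISPR vector was used.

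Most of what follows concerns the synthesis of cholesterol. Cells build cholesterol from acetyl units through mevalonate, isoprenoid diphosphates, squalene and a chain of sterol intermediates. The genes of this chain are known to be switched on together by SREBP2, a transcription factor held in the endoplasmic reticulum while sterols are abundant and released to the nucleus when they are scarce. The related factor SREBP1 acts mainly on fatty acid synthesis, and NF-Y, which binds the sequence CCAAT, is a known partner of both. ZHX3 encodes a zinc-finger and homeobox protein known as a repressor of transcription, and proteins of its family are known to bind the A subunit of NF-Y.

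The deposited values are read counts per gene. The Z5 wells held 52500477 to 58036721 counts and the Z9 wells 53163996 to 57624300, and the 10 most abundant genes took 9.53% to 9.96% of the counts of these wells. In Z5 and Z9, any 2 wells of the same line differed by 6.01 to 19.5 times counting noise, measured as a chi-square per degree of freedom, so none was counted as a repeat. Wells of Empty differed by 10.4 to 11.5 times, and those of Z2 by 43 (a and b), 30.2 (b and c) and 14 (a and c). The hepatocyte marker list, led by AFP and ALB, summed to 52600 to 53100 CPM (counts scaled to a common library size, corrected by TMM) in Z5 wells and to 49300 to 50400 in Z9 wells. Markers of fibroblasts summed to 26.1 to 28.8 CPM in Z5 and 22.9 to 32.9 in Z9, with COL1A2, DCN, LUM and DES at 0 in all 6 wells. Endothelial markers summed to 11.8 to 13.3 and 12.5 to 13.7 CPM, leukocyte markers other than LYZ to 52.0 to 65.7 and 47.6 to 64.3 CPM, and red cell markers to at most 0.386 CPM.

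ZHX3, the gene both vectors name, did not pass the test between the lines. Its level was 33.5, 32.5 and 32.8 CPM in Z5 wells a to c and 34.7, 33.5 and 34.8 in Z9 wells. The log2 fold change (Z9 minus Z5 throughout, unless another pair is named) was 0.058 with a 95% interval of -0.047 to 0.16 (edgeR adjusted p = 0.638). In Empty, the line labelled WT, ZHX3 stood at 33.0, 32.7 and 33.5 CPM. Against Empty it did not pass in Z9 (0.054, edgeR adjusted p = 0.490) or in Z5 (-0.0040, edgeR adjusted p = 0.972). ZHX3 lies on chromosome 20 from 41178455 to 41317731 (RefSeq, GRCh38.p14). Such counts do not show whether the gene was cut or how much protein was left. Of the related genes, ZHX2 had 106, 110 and 109 CPM in Z5 and 97.3, 94.5 and 90.8 in Z9, so that the wells did not overlap, but the difference did not pass (-0.20 ± 0.061, SE, edgeR adjusted p = 0.112). ZHX1 (-0.021) and the 3 NF-Y subunit genes NFYA (-0.084), NFYB (-0.019) and NFYC (0.047) did not pass either.

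Between Z9 and Z5, 232 of 15289 tested genes differed at an edgeR adjusted p under 0.05 (1.52%), and such genes are termed called. Of these, 66 were higher in Z9 (0.432% of tested genes) and 166 were lower (1.09%). Differences were small: the median log2 fold change was 0.35 among the higher genes and -0.37 among the lower ones, and 10 higher and 19 lower genes differed by at least 1.5-fold. The 3 higher and 2 lower genes that differed at least 2-fold included CXCL8, which encodes the chemokine interleukin 8, at 1.93, 1.63 and 2.23 CPM in Z5 and 0.922, 0.743 and 0.994 in Z9 (-1.12). Over all tested genes the median log2 fold change was -0.0022. All 232 called genes had Z9 and Z5 wells that did not overlap, as had 24.9% of all tested genes.

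**Figure D1:**
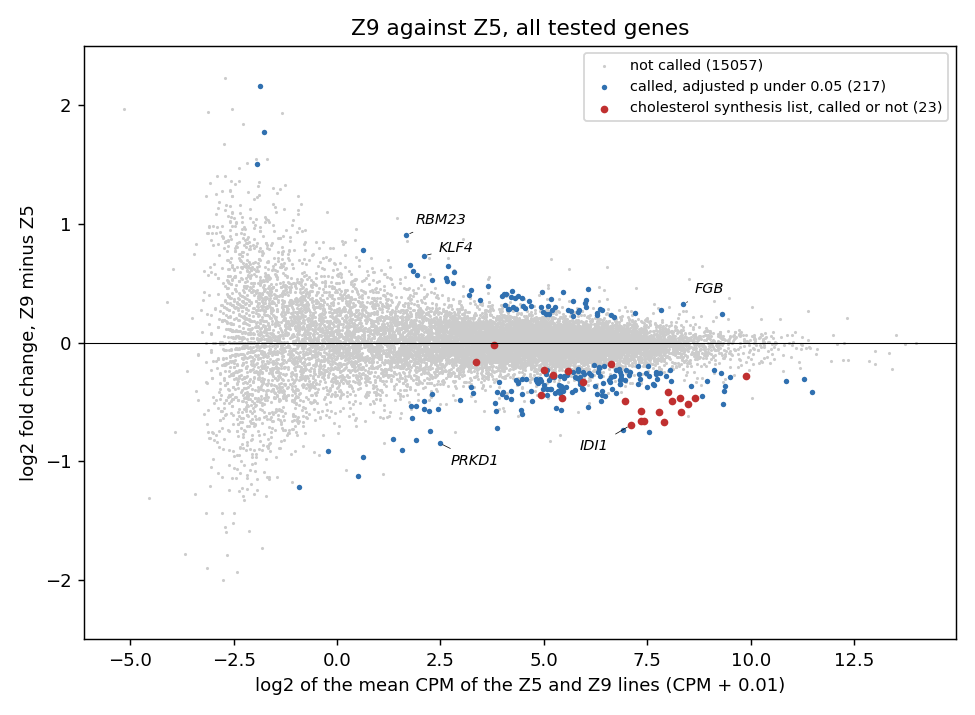
Each point is 1 tested gene, with the log2 of its mean CPM over the Z5 and Z9 lines on the x axis and its log2 fold change, Z9 minus Z5, on the y axis. Grey points were not called and blue points were called. Red points are the 23 genes of the cholesterol synthesis list, called or not, and all 23 lie below zero. 1 gene lies outside the y axis, which ends at 2.5 in either direction.

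The count of called genes moved widely with single wells, and that of called cholesterol synthesis genes less. With 1 well left out, which leaves its line with 2, the number of called genes was 44 without Z5 b, 37 without Z5 c, 57 without Z9 a, 86 without Z9 b and 68 without Z9 c. Leaving out Z2 b, a well of neither line, gave 653. That well enters only through the shared estimate of the spread, the gene filter and the scaling. Its pairs with Z2 a and Z2 c had the widest noise of any wells of 1 line (43 and 30.2 times counting noise). In the same fits 12 to 20 genes of cholesterol synthesis were called lower. Of the 232 genes, 33 were called in all 12 of these fits, of which 32 were lower in Z9 and 12 belong to cholesterol synthesis. The 1 higher gene was ARG2, which encodes the mitochondrial arginase (0.29, named after its values were seen).

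**Figure D2:**
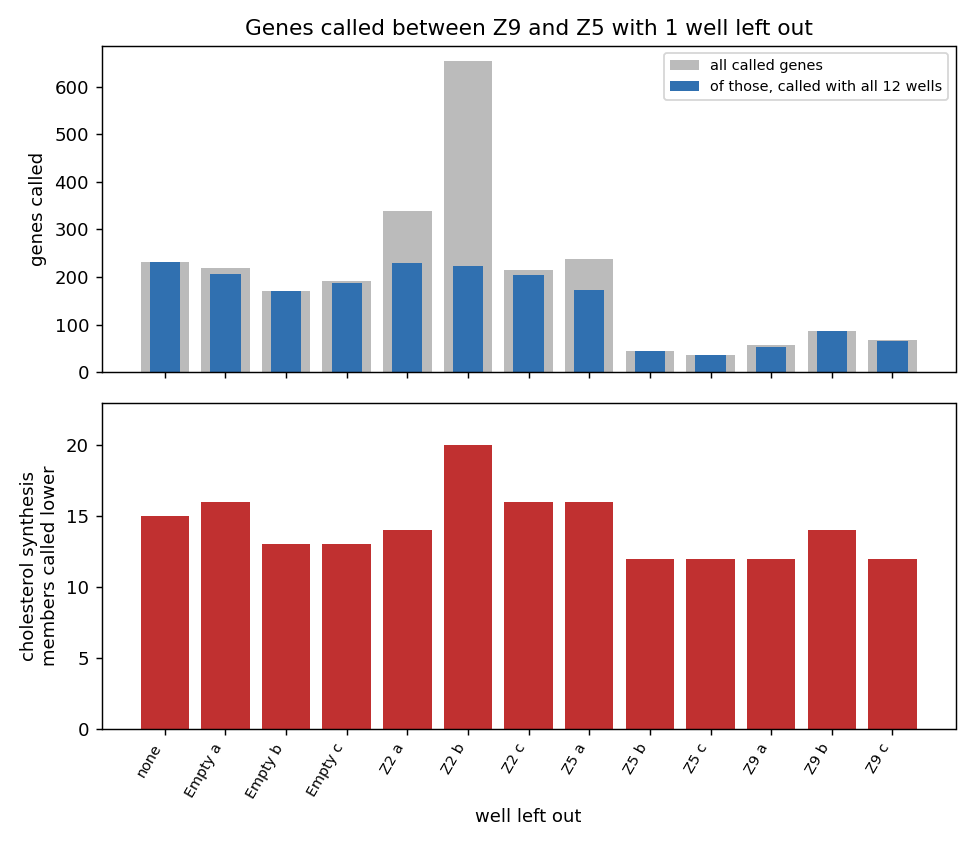
Bars show how many genes were called between Z9 and Z5 with all wells (none) or with the named well left out (x axis). In the upper panel grey bars are all called genes and blue bars those also called with all 12 wells. In the lower panel red bars are the members of the cholesterol synthesis list called lower in Z9, which stayed between 12 and 20 while the upper bars ran from 37 to 653.

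Most enzymes of cholesterol synthesis were lower in Z9. All 23 list members were tested, edgeR called 15 lower and 0 higher, and the median log2 fold change was -0.47. That is 65.2% of the list, beside 1.09% of all tested genes. At an unadjusted edgeR p under 0.05, 21 were lower and 0 higher, and DESeq2 called 18 lower and 0 higher. All 23 had a log2 fold change below zero, as had 50.7% of tested genes, and in 21 every Z9 well lay below every Z5 well, as in 13.6% of tested genes. This list had been seen to differ between these lines in an earlier analysis of the same counts, so its direction is a description and not independent evidence.

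At the entry of the chain, ACAT2, which joins acetyl units, had 194, 221 and 214 CPM in Z5 wells and 129, 139 and 132 in Z9 wells (-0.66 ± 0.069, SE, edgeR adjusted p = 1.33e-04). HMGCS1, the synthase of the next step, had 351, 394 and 398 CPM in Z5 and 219, 263 and 281 in Z9 (-0.58 ± 0.077, edgeR adjusted p = 0.00127). No Z9 well of either gene reached a Z5 well. The kinase MVK (-0.47) and the decarboxylase MVD (-0.66), which turn mevalonate into isopentenyl diphosphate, were lower as well. PMVK, the kinase between them, had 13.7, 13.6 and 14.5 CPM in Z5 and 14.1, 14.4 and 12.7 in Z9 (-0.022, edgeR adjusted p = 0.953). IDI1, the isomerase that follows, had 157, 180 and 170 CPM in Z5 and 92.5, 112 and 109 in Z9, the largest log2 fold change of the list (-0.70 ± 0.073, edgeR adjusted p = 1.33e-04). Its level in Z9 was 61.7% of that in Z5. IDI1 lies on chromosome 10 from 1039152 to 1056704 (GRCh38.p14). The prenyl transferase FDPS (-0.58) was lower, and GGPS1 (-0.23, edgeR adjusted p = 0.108), which draws isoprenoids off to protein prenylation, did not pass. Reads of ACAT2 may be shared with the overlapping genes TCP1 and SOD2, those of IDI1 with WDR37 and IDI2-AS1, and those of MVK with MMAB, since the strand setting of the counting is not given.

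From squalene onwards, FDFT1 (-0.52), which makes squalene, and the epoxidase SQLE were lower. SQLE had 343, 383 and 367 CPM in Z5 and 245, 284 and 260 in Z9 (-0.47 ± 0.068, edgeR adjusted p = 0.0022). The cyclase LSS, which forms the first sterol, had 283, 348 and 329 CPM in Z5 and 221, 244 and 218 in Z9, without overlap, and missed the threshold (-0.49 ± 0.12, edgeR adjusted p = 0.0586). The demethylases CYP51A1 (-0.41) and MSMO1 (-0.59), the ketoreductase HSD17B7 (-0.44) and the desaturase SC5D were lower. HSD17B7 may share reads with its pseudogene HSD17B7P2, as the treatment of multi-mapping reads is not given. That pseudogene, named after its values were seen, was lower too (-0.51, edgeR adjusted p = 0.0450). SC5D had 137, 156 and 145 CPM in Z5 and 101, 105 and 106 in Z9 (-0.49 ± 0.063, edgeR adjusted p = 0.00102). The reductase DHCR7 (-0.47), which acts at the end of the chain, was lower too. NSDHL (-0.27), EBP (-0.24), TM7SF2 (-0.33), LBR (-0.18) and FAXDC2 (-0.16) did not pass, with edgeR adjusted p from 0.0731 to 0.478. Of the 15 called members, 12 were called whichever well was left out. MVD and DHCR7 were among the other 3: each lost the call without Z5 b, Z5 c, Z9 a or Z9 c, MVD also without Empty b, Empty c, Z2 a or Z9 b, and DHCR7 also without Empty b, Empty c or Z2 b, with edgeR adjusted p of up to 0.182.

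**Figure D3:**
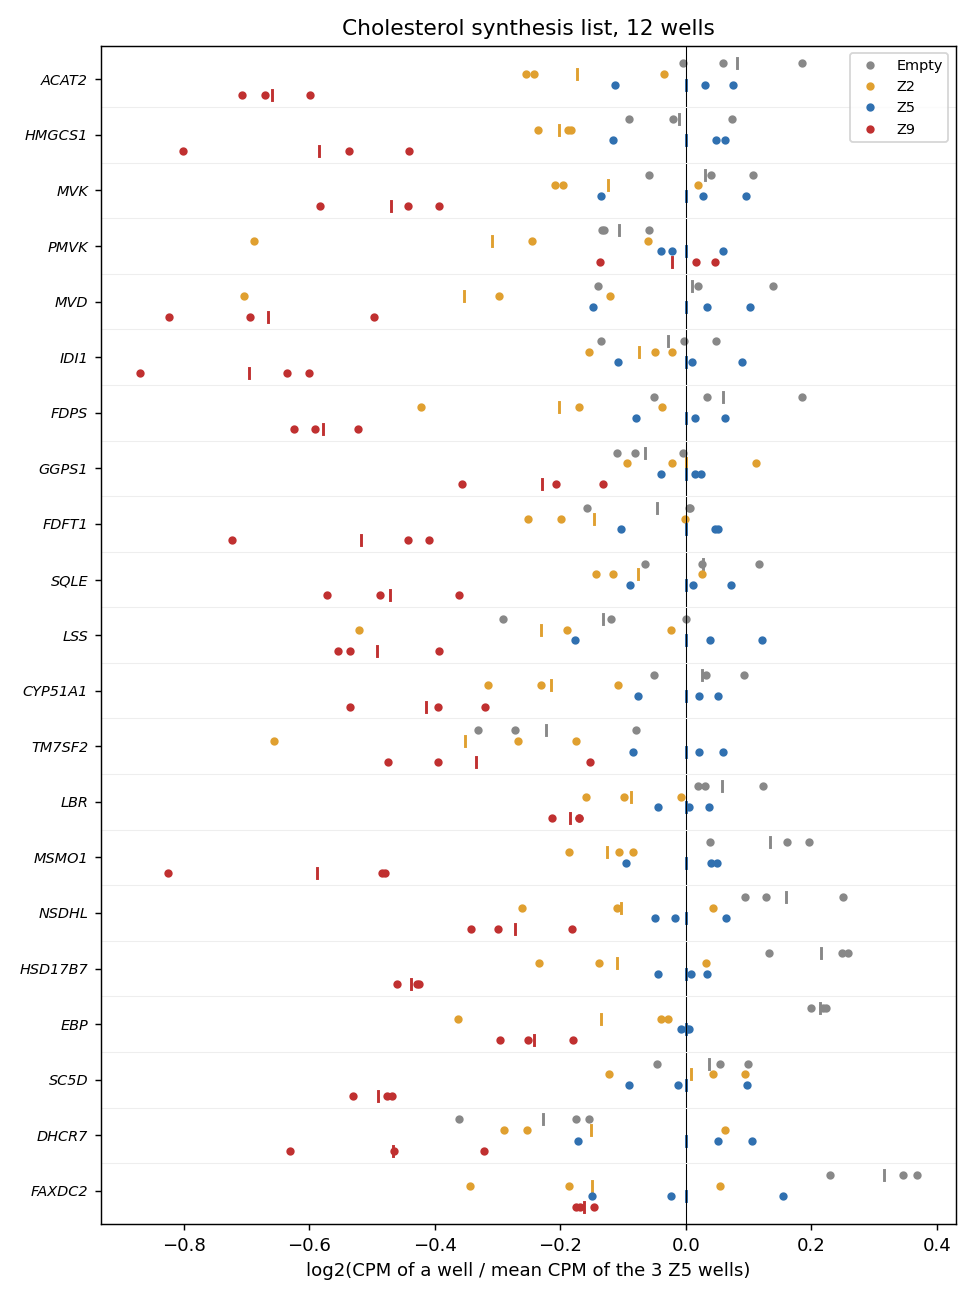
Rows are 21 of the 23 genes of the cholesterol synthesis list, roughly in the order of the chain. Each point is 1 well, placed at the log2 of its CPM over the mean CPM of the 3 Z5 wells, with Empty in grey, Z2 in orange, Z5 in blue and Z9 in red, and a short bar marks the mean CPM of a line. The Z9 wells lie left of the Z5 wells in 19 rows. In PMVK and FAXDC2 they overlap.

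The wells of a line were not alike in these genes. Well a was the lowest of its line in 20 of 23 members in Z5 and in 20 of 23 in Z9, and in 18 of 23 in Empty, but in 11 of 23 in Z2. The median over the list, as log2 of a well over the Z5 mean, was -0.089, 0.051 and 0.031 in Z5 a to c and -0.54, -0.39 and -0.44 in Z9 a to c. The gap between the lines was therefore wider than the gap between wells. The same medians were -0.058, 0.032 and 0.10 in Empty wells and -0.19, -0.22 and -0.038 in Z2 wells. Against Empty, the median log2 fold change of the list was -0.48 in Z9, with 19 members called lower, and -0.028 in Z5, with 3 called lower. These values share wells with the Z9 against Z5 comparison and are given side by side only. The share of all tested genes called lower than Empty was 9.58% in Z9 and 6.68% in Z5.

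Promoters of the pathway were searched for 2 motifs, since SREBP2 and NF-Y are known regulators of these genes. RefSeq promoter windows (GRCh38.p14), 250 bases before to 50 after the start site that RefSeq table uses, were searched for 18 of 23 members, with ACAT2, FDFT1 and SQLE among those not searched. The SRE-like motif TCACNCCAC, on either strand, was found in 0 of these 18 windows and in 313 of 27305 windows of that length (1.15%), which says only that these letters were not in these windows. The motif CCAAT, on either strand, was found in 12 of 18 (66.7%), beside 35.7% of all windows and 36.4% of those of tested genes. Among members called lower it was in 8 of 10, among members not called in 4 of 8, and among all genes called lower in 57 of 129 (44.2%). With no SRE-like match in the windows of the list, the motifs could not overlap there. A match is a description and not a site. The 200 bases before that start site are shown for 4 called members because they hold several matches each (they were picked after the matches were seen), with CCAAT or its reverse complement ATTGG in capitals. In MVK this stretch lies inside the annotated span of the gene, which starts at 109573272.
HMGCS1, chr5:43313413-43313612, minus strand: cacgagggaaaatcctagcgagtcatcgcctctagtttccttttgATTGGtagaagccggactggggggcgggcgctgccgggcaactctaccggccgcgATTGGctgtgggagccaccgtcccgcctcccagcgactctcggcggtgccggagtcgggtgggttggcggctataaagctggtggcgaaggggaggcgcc
FDPS, chr1:155308666-155308865, plus strand: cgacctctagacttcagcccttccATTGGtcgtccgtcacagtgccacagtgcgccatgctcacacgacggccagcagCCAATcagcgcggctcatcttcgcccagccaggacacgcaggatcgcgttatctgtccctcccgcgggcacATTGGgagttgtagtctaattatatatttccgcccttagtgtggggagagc
MSMO1, chr4:165327469-165327668, plus strand: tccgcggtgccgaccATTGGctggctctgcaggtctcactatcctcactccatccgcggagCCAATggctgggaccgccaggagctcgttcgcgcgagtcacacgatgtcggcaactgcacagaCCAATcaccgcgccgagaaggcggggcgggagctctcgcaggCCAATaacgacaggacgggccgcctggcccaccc
MVK, chr12:109573594-109573793, plus strand: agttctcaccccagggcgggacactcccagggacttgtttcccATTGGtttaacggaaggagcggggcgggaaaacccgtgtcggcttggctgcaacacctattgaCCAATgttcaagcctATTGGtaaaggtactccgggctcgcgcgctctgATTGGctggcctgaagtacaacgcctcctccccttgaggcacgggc

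Of 22 tested genes of sterol sensing and LDL uptake, edgeR called 2 lower and 0 higher, which is 9.09% lower beside 1.09% of all tested genes, with a median of -0.093. At an unadjusted edgeR p under 0.05, 9 were lower and 2 higher (8.01% and 6.45% of all tested genes), and DESeq2 called 2 lower and 1 higher. In 17 of 22 the log2 fold change was below zero, and in 9 every Z9 well lay below every Z5 well, as in 13.6% of all tested genes. STARD4, a cytosolic sterol carrier, had 90.2, 104 and 97.7 CPM in Z5 and 73.9, 75.9 and 69.9 in Z9 (-0.41 ± 0.063, SE, edgeR adjusted p = 0.00319). Its Z9 wells lay below the Z5 wells and below those of Z2, at 89.2 to 94.5 CPM. SREBF2, which encodes SREBP2 (-0.17), SREBF1 (-0.060) and the SREBP escort SCAP (0.14) did not pass. INSIG1, which retains SREBPs, was counted below 0.5 CPM in every Z5 and Z9 well. The annotation behind the counts is not given, so that count may not reflect the level of INSIG1 mRNA. Of 14 tested genes of cholesterol efflux, edgeR called 0 higher and 2 lower (14.3%, beside 1.09% of all tested genes). These were the exporter ABCA1 (-0.35) and the sterol esterifying enzyme SOAT2 (-0.35). At an unadjusted edgeR p under 0.05, 4 of the 14 were lower and 2 higher, and DESeq2 called 2 lower and 0 higher. Every Z9 well lay below every Z5 well in 4 of them and above in 2 (13.6% and 11.3% of all tested genes). Leaving out 1 well ended the call of SOAT2 without Z5 b, Z5 c or any Z9 well, and that of ABCA1 without Z5 c (edgeR adjusted p up to 0.163). STARD4 was called in all 12 fits.

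Part of fatty acid and triglyceride synthesis was lower as well. Of 24 tested members, edgeR called 9 lower and 0 higher (37.5% lower, beside 1.09% of all tested genes), with a median of -0.14. At an unadjusted edgeR p under 0.05, 12 were lower and 0 higher (8.01% and 6.45% of all tested genes), and DESeq2 called 11 lower and 0 higher (2.65% and 1.34% of the genes to which it gave an adjusted p). ACLY, which makes cytosolic acetyl-CoA from citrate, had 483, 542 and 546 CPM in Z5 and 352, 412 and 383 in Z9 (-0.45 ± 0.072, SE, edgeR adjusted p = 0.00408). ACSS2, which makes it from acetate, had 126, 162 and 164 CPM in Z5 and 79.5, 98.0 and 93.4 in Z9 (-0.74 ± 0.14, edgeR adjusted p = 0.0274). PNPLA3, a lipid droplet protein whose gene is a known SREBP1 target, had 24.1, 27.8 and 28.1 CPM in Z5 and 17.0, 18.6 and 17.0 in Z9 (-0.60). In none of the 3 genes did wells of the lines overlap. The desaturases SCD (-0.42) and FADS2 (-0.45), the acyl-CoA synthetase ACSL3 (-0.41) and TMEM97 (-0.44), a sterol-responsive membrane protein, were also lower. So were FADS1 (-0.28) and the elongase ELOVL6 (-0.31), named here because they complete the 9. The fatty acid synthase FASN did not pass (-0.24, edgeR adjusted p = 0.0849), nor did ACACA (-0.13), DGAT1 (0.052) and DGAT2 (-0.068). ACLY, PNPLA3 and TMEM97 were called whichever well was left out. The other 6 each lost the call without Z5 b, Z5 c, Z9 a or Z9 c, and ACSS2 and FADS1 also without Z9 b (edgeR adjusted p up to 0.172). FADS1 and FADS2 overlap in the annotation. Of 21 tested genes of fatty acid oxidation edgeR called 0 (5 lower at an unadjusted p under 0.05, and 2 by DESeq2). Of 10 genes of lipid droplets and lipolysis it called 1 lower (10%, beside 1.09% of all tested genes), the lysosomal lipase LIPA (-0.24). The LIPA call ended without Z5 b, Z5 c or any Z9 well (edgeR adjusted p up to 0.179).

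Several of the 15 genes most lowered in Z9 stood below 20 CPM. PRKD1, which encodes protein kinase D1, had 7.25, 7.12 and 7.06 CPM in Z5 and 3.82, 3.94 and 4.16 in Z9 (-0.85 ± 0.13, SE, edgeR adjusted p = 0.00408). Its Z2 wells lay with Z5, at 5.92 to 6.99 CPM, and its Empty wells below both, at 1.20 to 2.13. PRKD1 lies on chromosome 14 from 29576479 to 29927847 (GRCh38.p14). HAVCR1, a membrane receptor known as a kidney injury marker, had 3.82, 5.58 and 4.96 CPM in Z5 and 2.54, 3.04 and 2.53 in Z9 (-0.82). SUSD2, a cell surface protein, had 15.8, 19.1 and 19.4 CPM in Z5 and 8.98, 11.8 and 12.2 in Z9 (-0.72 ± 0.12, edgeR adjusted p = 0.0089). The tumour antigen gene PRAME had 3.13, 3.67 and 3.00 CPM in Z5 and 1.73, 1.94 and 1.90 in Z9 (-0.81), with 1.62 to 2.33 in Z2 and at most 0.0589 in Empty. In each of these genes the Z9 wells lay below the Z5 wells without overlap. The cytokine gene IL17B (-0.91), TMEM191B (-0.64) and CCDC152 (-0.75) were lower too. CCDC152 overlaps SEPP1, the gene of the selenium carrier selenoprotein P, which was lower as well (-0.37), so their reads cannot be told apart here. PRKD1 was called whichever well was left out. HAVCR1, SUSD2, PRAME, IL17B, TMEM191B, CCDC152 and SEPP1 lost the call without Z5 b or Z5 c, and all but SUSD2 also without 1 to 3 of the Z9 wells (PRAME also without Z5 a), with edgeR adjusted p of up to 0.195.

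The genes most raised in Z9 had varied functions. RBM23, which encodes an RNA-binding splicing factor, had 2.01, 2.61 and 2.03 CPM in Z5 and 4.61, 3.70 and 4.16 in Z9 (0.91 ± 0.18, SE, edgeR adjusted p = 0.0204). KLF4, a Kruppel-like transcription factor, had 3.55, 2.78 and 3.30 CPM in Z5 and 6.07, 4.72 and 5.24 in Z9 (0.73 ± 0.15, edgeR adjusted p = 0.0196). Both had Z9 wells above every Z5 well. In Empty, RBM23 stood at 1.61 to 3.12 CPM and KLF4 at 2.42 to 3.57, near Z5. In Z2, RBM23 stood at 2.56 to 2.75 CPM, below its Z9 wells, but KLF4, at 4.57, 4.96 and 3.99, overlapped with Z9 and was higher than in Empty (0.62, edgeR adjusted p = 0.00686). RPL22L1, a paralog of a ribosomal protein, had 60.8, 58.5 and 50.2 CPM in Z5 and 81.4, 77.3 and 72.7 in Z9 (0.45 ± 0.080, edgeR adjusted p = 0.0103). AMOTL2, an angiomotin family gene and known YAP target, had 28.0, 25.2 and 25.8 CPM in Z5 and 35.9, 34.2 and 35.8 in Z9 (0.42 ± 0.073, edgeR adjusted p = 0.00781). The lipid transporter ABCA3 (0.57), the amine oxidase AOC2 (0.54), the embryonic myosin MYH3 (0.65), the transcription factors ZSCAN5A (0.53) and TBX15 (0.50), the amino acid transporter SLC38A5 (0.43), the leukotriene receptor LTB4R (0.41) and the phosphatase DUSP10 (0.40) were higher, as were RPS6KL1 (0.45), FCGBP (0.43) and LURAP1L (0.41). ZSCAN5A overlapped between Z9 and Empty, at 6.29, 5.53 and 5.44 CPM in Z9 and 5.36 to 6.0 in Empty, against 3.80 to 4.25 in Z5. None of these 15 genes kept its call in every fit with a well left out. All 15 lost it without Z5 c, 13 (all but RBM23 and RPL22L1) without Z5 b, 14 (all but AMOTL2) without Z9 a, and some without Z5 a, Z9 b, Z9 c or, for DUSP10, Empty b (edgeR adjusted p up to 0.184).

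**Figure D4:**
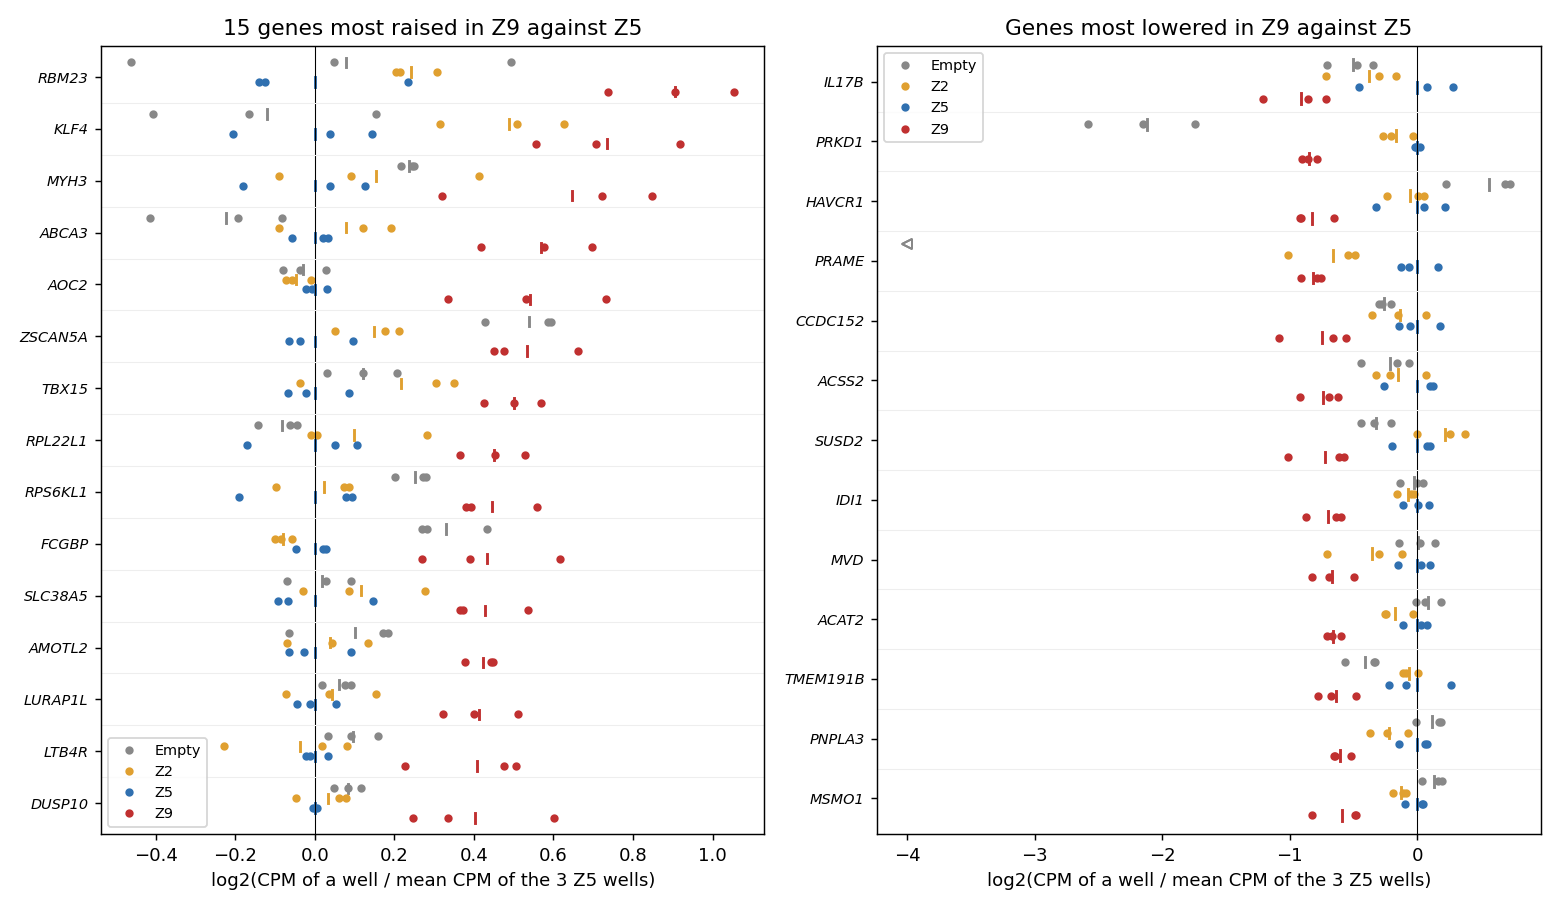
The 15 protein-coding genes with the largest called increase (left) and 13 of the 15 with the largest called decrease (right) in Z9 against Z5, at a mean of at least 1 log2 CPM. Each point is 1 well, at the log2 of its CPM over the mean CPM of the 3 Z5 wells, coloured by line, with a short bar at the mean CPM of a line. Red Z9 wells and blue Z5 wells do not overlap in any row. Open triangles at the left edge are the 3 Empty wells of PRAME, which lie at or beyond -4.

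In the lists of secreted liver proteins 1 to 3 members each were called, of 17 to 24 tested. FGB, the fibrinogen beta chain, had 308, 295 and 281 CPM in Z5 and 356, 375 and 375 in Z9 (0.32 ± 0.054, SE, edgeR adjusted p = 0.00585), without overlap. Protein S, PROS1, an anticoagulant, had 115, 116 and 113 CPM in Z5 and 95.2, 94.7 and 92.2 in Z9 (-0.28 ± 0.046, edgeR adjusted p = 0.00466). The tissue factor inhibitor TFPI was lower (-0.33). The coagulation list thus had 1 higher (4.17%, beside 0.432% of all tested genes) and 2 lower of 24 tested members (8.33%, beside 1.09%), with a median of -0.019. The list of apolipoproteins and partners had 2 lower of 20 (10%) and 18 below zero (50.7% of all tested genes), with a median of -0.097. At an unadjusted edgeR p under 0.05 it had 7 lower and 0 higher, beside 8.01% and 6.45% of all tested genes. In 9 of the 20 every Z9 well lay below every Z5 well, as in 13.6% of all tested genes. Its called members APOF (-0.58), a regulator of lipid transfer, and C19orf80 (-0.57), now named ANGPTL8, whose product inhibits lipoprotein lipase, were lower. C19orf80 lies within DOCK6. The carrier of thyroid hormone TTR (-0.37), of 23 carrier proteins, and the complement protease CFI (-0.23), of 19 complement genes, were lower. So were 2 of 17 acute phase genes (11.8%), LRG1 (-0.39) and the transcription factor CEBPD (-0.38). PROS1 and APOF were called whichever well was left out. FGB lost the call without Z5 c (edgeR adjusted p = 0.0676), and the others without Z5 b, Z5 c or Z9 a, and for TFPI, TTR, C19orf80 and CFI also without Z9 c (edgeR adjusted p up to 0.183).

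Of the others of the 49 lists that had a called member, each had 1 to 3. Of all tested genes, 0.432% were called higher and 1.09% lower. The list of immediate early and KLF genes had 2 higher of 31 tested members (6.45%), ATF3 and KLF4, and 0 lower. At an unadjusted edgeR p under 0.05 it had 7 higher and 1 lower, beside 6.45% and 8.01% of all tested genes. DESeq2 called 3 of its members higher and 0 lower. Conjugating enzymes had 2 lower of 21 (9.52%), mesenchymal genes 2 of 24 (8.33%) and matrix genes 2 of 42 (4.76%). A further list, of ribosome biogenesis factors, is given under other observations. In the lists of amino acid, drug and stress metabolism, GLUD1 (-0.26), the glutamate dehydrogenase, ALDH1B1 (-0.23), the conjugating enzymes GSTO1 (-0.29) and SULT1A1 (-0.26), the heme oxygenase HMOX1 (-0.44), NCOA4 (-0.23), the ferritin receptor of autophagy, CYC1 (-0.35), a subunit of respiratory complex III, and the cathepsin inhibitor CSTB (-0.42) were lower. The stress-induced factor ATF3 was higher (0.36), with 33.8, 30.4 and 30.4 CPM in Z5 and 35.6, 41.0 and 45.1 in Z9. Of 21 oncofetal genes, 3 were lower (14.3%, beside 1.09% of all tested genes): DLK1 (-0.37), at 698 to 787 CPM in Z5 and 565 to 611 in Z9, HMGA2 (-0.26) and the imprinted PEG10 (-0.31). The actin-binding protein CALD1 (-0.20), the lectin LGALS3 (-0.40), the integrin ITGB5 (-0.28) and the protease MMP15 (-0.25) were lower, and the WNT effector TCF7 (0.26) and the interferon-induced OAS3 (0.31) were higher. LYZ, which encodes lysozyme and stood in the leukocyte list, was lower at 1975 to 2098 CPM in Z5 and 1545 to 1690.3 in Z9 (-0.32), and the leukocyte genes CD3E in both lines and PTPRC in Z9 were at 0. Each of these genes, and CXCL8, lost its call without Z5 c, and without at least 1 other Z5 or Z9 well, with edgeR adjusted p of up to 0.251 for OAS3. Leaving out Empty b also ended the calls of OAS3, HMOX1, NCOA4, ALDH1B1, GSTO1, SULT1A1, CALD1, MMP15 and TCF7, leaving out Empty a those of OAS3, HMOX1, NCOA4 and MMP15, and leaving out Empty c those of HMOX1, NCOA4, SULT1A1, CALD1, MMP15 and CSTB. Leaving out Z2 b ended those of HMOX1, LGALS3 and CSTB, and Z2 c those of OAS3, NCOA4 and LGALS3.

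Many lists had no called member, beside 1.52% called of all tested genes, which for a list of this size is fewer than 1 gene. These included S phase (0 of 34 tested), G2 and mitosis (0 of 32), glycolysis and hypoxia (0 of 31), hepatocyte transcription factors (0 of 24), bile acid synthesis and transport (0 of 23), the unfolded protein response (0 of 23) and p53 targets (0 of 20). Their medians ran from -0.12 for glycolysis to 0.15 for the unfolded protein response. At an unadjusted edgeR p under 0.05 they held 3 (S phase), 0 (G2 and mitosis), 12 (glycolysis), 3 (transcription factors), 6 (bile acids), 3 (unfolded protein response) and 3 (p53) genes, beside 14.5% of all tested genes. In glycolysis and hypoxia 11 of the 12 were lower, beside 8.01% of all tested genes, and 25 of 31 members were below zero (50.7% of all tested genes). In 14 of 31 every Z9 well lay below every Z5 well, as in 13.6% of all tested genes. DESeq2 called 4 genes of glycolysis and 2 of bile acid transport, and 0 of the other 5 lists. These counts changed with the well letter as a block in the Z9 and Z5 libraries alone, a fit added after seeing the data. It called 12 unfolded protein response genes and 4 p53 targets higher and 0 of either lower, beside 1654 of 14933 tested genes. In glycolysis and hypoxia it called 14 lower and 1 higher. Among 10 hepatocyte markers 7 were below zero, and edgeR called TTR lower and FGB higher. AFP was at 11800 CPM in Z5 and 10100 in Z9 and APOB at 7850 and 7050, while ALB was at 11500 and 12000, and HNF4A, a master regulator of the hepatocyte, at 323 and 313.

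**Figure D5:**
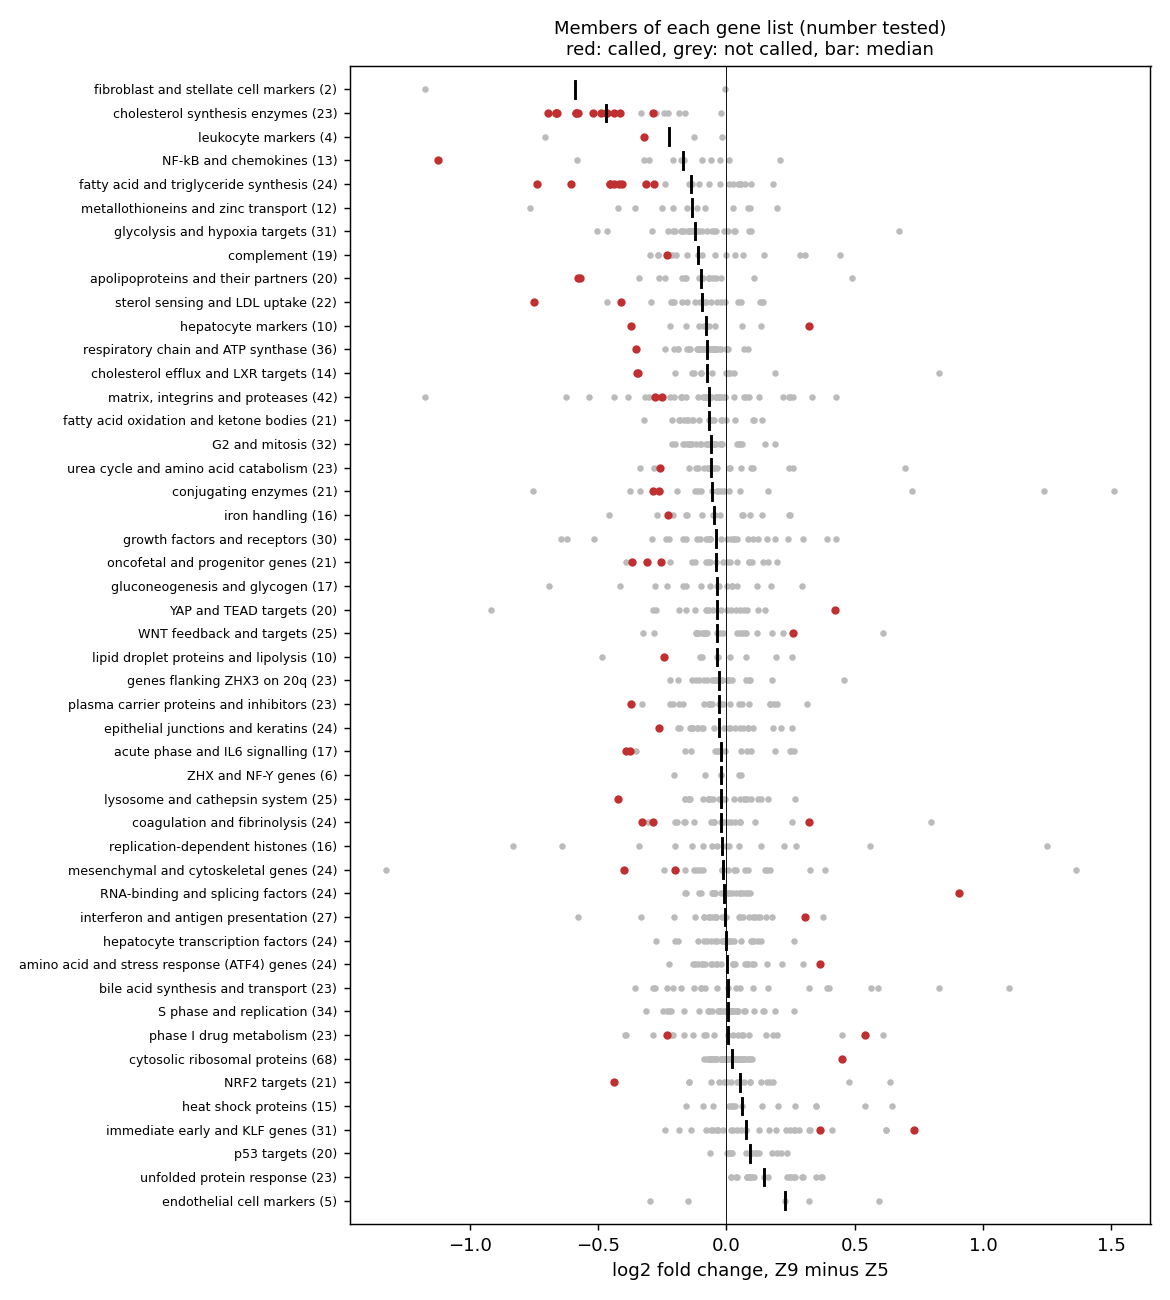
Rows are gene lists with the number of tested members in brackets, ordered by their median log2 fold change, Z9 minus Z5 (x axis). Red points are called members, grey points members not called, and black bars medians. Red points gather in cholesterol synthesis, with 15 of 23 members, and in fatty acid and triglyceride synthesis, with 9 of 24. The other lists shown have at most 3. The list of ribosome biogenesis factors, drawn up after the called genes were seen, is not shown.

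The genes that differed between Z9 and Z5 were then looked up in Z2 against Empty, a comparison that shares no library with it, although both use 1 estimate of the spread. Of the 166 genes lower in Z9 than in Z5, 47 were lower in Z2 than in Empty (28.3%), beside 11.5% of all tested genes, and 29 were higher (17.5%), beside 12.4%. The count of 47 was 28 without Empty b and 30 without Empty c, and 13 to 19 without Z5 b, Z5 c or a Z9 well, where fewer genes were lower in Z9 to begin with. Without Z2 b it was 77. Of the 66 genes higher in Z9, 9 were higher and 9 lower in Z2 (13.6% each). Of the 15 cholesterol synthesis genes, Z2 had 6 lower and 0 higher, and 14 had a log2 fold change below zero, with a median of -0.19. The demethylase gene MSMO1, for example, had 271, 303 and 295 CPM in Empty and 232, 249 and 245 in Z2, all above its Z9 wells at 149, 189 and 189. Its log2 fold change was -0.26 for Z2 minus Empty (edgeR adjusted p = 0.0234) and -0.46 for Z9 minus Z2 (edgeR adjusted p = 0.00745).

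The called genes were spread over the genome. Median log2 fold changes of protein-coding genes per chromosome lay between -0.030 and 0.028. In 523 runs of 25 neighbouring protein-coding genes the medians lay between -0.12 and 0.10, and no run held more than 3 called genes. The called share of protein-coding genes ran from 0.552% on chromosome 18 to 2.95% on chromosome 10, beside 1.67% over all chromosomes. Chromosome 20, which carries ZHX3, had 0 higher and 3 lower of 367 protein-coding genes (0.817%). Of 23 tested genes that flank ZHX3 edgeR called 0, beside 1.52% of all tested genes, and their median was -0.030. At an unadjusted edgeR p under 0.05 there was 1, beside 14.5% of all tested genes, and DESeq2 called 0.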

How the data were processed

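The deposited table holds whole-number read counts per gene symbol for 12 libraries of 4 HepG2 lines. The submitters' processing notes name STAR, featureCounts and the build hg38. Tool versions, annotation, strand setting and the treatment of multi-mapping reads are not given in these sources, so counts of overlapping or near-identical genes are uncertain. The quasi-likelihood test of edgeR 4.0.16 (R 4.3.3) was used after filterByExpr by group, which kept 15289 of 26485 genes, and TMM scaling. A robust model with 4 line means took in all 12 libraries (8 residual degrees of freedom, common biological coefficient of variation 0.0696). Benjamini-Hochberg adjustment ran over all tested genes, and genes under 0.05 were called. SEs were derived from the fold change and the F statistic. The test was checked on simulated counts. Totals of 50864744 to 65428204 counts per library set the counting precision.

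The members, gene lists and rules were chosen with earlier results of these data known. Named genes are ZHX3, ZHX1 and ZHX2; the 15 higher and 15 lower protein-coding genes with the largest change among called genes that averaged 1 log2 CPM or more over the 6 wells; and up to 6 called members of each of 49 lists with the smallest adjusted p, or all called members for cholesterol synthesis and sterol sensing. Some genes that these rules name are not reported here. Genes named otherwise are marked or are list members that did not pass. Symbols were matched to RefSeq (GRCh38.p14), leaving 356 of the tested genes unmatched. Alternatives were DESeq2 1.42.0 size factors and Wald test, 2 other filters, fits of fewer lines, the replicate block, non-robust dispersion, a 1.5-fold minimum and each library left out.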

Additional observations from a re-analysis of the deposited data

How the results depend on the processing

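All 232 genes called between Z9 and Z5 kept their direction in each alternative fit in which they were tested. The count moved by over 1.5 times with the test or the libraries that set the spread. The DESeq2 Wald test called 504 genes (169 higher, 335 lower), and a fit of the Z9 and Z5 libraries alone 664 (241 higher, 423 lower). The Z5, Z9 and Empty libraries, a choice made after seeing the data, gave 734 (283 higher, 451 lower). A 1.5-fold minimum kept 29 (10 higher, 19 lower), 5 of them in cholesterol synthesis. The count of 47 genes also lower in Z2 than in Empty became 82 by DESeq2 and 6 with the 1.5-fold minimum, and could not be had from the fit of Z9 and Z5 alone. With 1 library left out the called genes ran from 37 to 653, the higher from 3 to 232, the lower from 34 to 421, those also lower in Z2 from 13 to 77, and the cholesterol synthesis genes from 12 to 20. DESeq2 size factors (231), no filter beyond 1 count (269), a 1 CPM minimum (242) and non-robust dispersion (223) moved the count by less than 1.5 times, but ended single calls. Without the filter MVD, DHCR7, ACSS2, CALD1 and HMOX1 lost theirs, without robust dispersion OAS3 and SULT1A1, in the fit of Z9 and Z5 alone HMOX1 and CSTB, and with Empty added HMOX1, CSTB and LGALS3 (edgeR adjusted p up to 0.131). The cause of these shifts was not tested.

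With the well letter as a replicate block 488 genes were called (148 higher, 340 lower), and 73 for the count in Z2. A block in the Z9 and Z5 libraries alone, added after seeing the data, gave 1654 (701 higher, 953 lower). In the unfolded protein response list the first block called 0 of 23 (HSPA5 adjusted p = 0.373, HYOU1 0.566 by edgeR) and the second 12 higher (HSPA5 4.56e-04, HYOU1 5.47e-04). In the p53 list they called 0 and 4 higher, and in glycolysis and hypoxia 5 and 14 lower. Deviations of same-letter wells of Z9 and Z5 correlated at 0.124, 0.0599 and 0.0926 over all tested genes, and each well correlated best with its own letter there. Over the 9612 genes of at least 3 log2 CPM they correlated at 0.316, 0.177 and 0.351, but Z9 b correlated better with Z5 c (0.257). The letters do not state a shared day or plate position, and not every value over all tested genes passed 0.1. Calls in this report are therefore those of the fit without the block, unless a blocked fit is named.

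Wells of 1 line per vector limit these results: with 3 wells a line, most calls depended on single wells, and 2210 genes had an unadjusted p under 0.05 where 232 were called. Levels of genes below a few CPM rest on fewer counts than those of abundant genes, and the smallest called log2 fold changes were 0.22 and -0.19.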

Other observations

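Some called genes outside the lists were called whichever well was left out. Those given here were picked after their values were seen. C14orf1, an older symbol of ERG28, which encodes a scaffold of sterol enzymes in the endoplasmic reticulum, had 72.0, 86.2 and 81.1 CPM in Z5 and 51.7, 59.2 and 53.8 in Z9 (-0.54 ± 0.079, SE, edgeR adjusted p = 0.00283). ACSL4, an acyl-CoA synthetase that favours arachidonic acid, had 701, 786 and 783 CPM in Z5 and 507, 555 and 523 in Z9 (-0.52 ± 0.070, edgeR adjusted p = 0.00131). FZD4, a WNT receptor, had 90.7, 99.1 and 102 CPM in Z5 and 68.9, 68.6 and 69.4 in Z9 (-0.50 ± 0.055, edgeR adjusted p = 2.12e-04). The Z9 wells of all 3 genes lay below the Z5 wells. The mitochondrial acyl-CoA synthetase ACSS3 was also lower (-0.39, edgeR adjusted p = 0.00102), and ARG2 was higher (0.29, edgeR adjusted p = 0.00408). MMAB, which shares its promoter region with MVK, was lower (-0.44, edgeR adjusted p = 0.00914), a call that ended without Z5 b, Z5 c, Z9 a or Z9 c (up to 0.0718).

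Genes of the TET family, whose enzymes oxidise methylcytosine, were called in both directions. TET1 had 42.5, 44.9 and 45.3 CPM in Z5 and 30.5, 34.4 and 34.1 in Z9 (-0.42 ± 0.094, SE, edgeR adjusted p = 0.0353). TET3 had 52.5, 52.5 and 50.7 CPM in Z5 and 66.2, 58.4 and 61.7 in Z9 (0.26 ± 0.056, edgeR adjusted p = 0.0263), and TET2 did not pass (0.060, edgeR adjusted p = 0.766). These genes too were chosen after their values were seen. Both calls ended without any 1 of Z5 a, Z5 b, Z5 c, Z9 a or Z9 c, and that of TET1 also without Empty c, Z2 c or Z9 b (edgeR adjusted p up to 0.165).

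A list of 118 ribosome biogenesis factors, drawn up after the called genes were seen, had 7 called higher and 0 lower by edgeR, with a median of 0.069. That is 5.93% higher, beside 0.432% of all tested genes. At an unadjusted edgeR p under 0.05 it had 24 higher and 0 lower, beside 6.45% and 8.01% of all tested genes, and DESeq2 called 10 higher and 0 lower. The called genes were NOL6 (0.27), NOC4L (0.28), CIRH1A (0.22), WDR46 (0.30), RRP12 (0.23), DHX37 (0.25) and the exosome subunit EXOSC5 (0.31). WDR46 had 61.7, 58.2 and 55.7 CPM in Z5 and 72.6, 72.4 and 71.4 in Z9. Each lost its call without Z5 b, Z5 c or any Z9 well, NOC4L also without Empty b, RRP12 also without Z5 a, and EXOSC5 also without Z5 a or any Empty well (edgeR adjusted p up to 0.215). Of 68 tested ribosomal protein genes, RPL22L1 was the 1 called.

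In the unfolded protein response list all 23 members had a log2 fold change above zero, as had 49.3% of all tested genes, and 0 were called, beside 1.52% (3 at an unadjusted edgeR p under 0.05, 0 by DESeq2). Wells varied widely within lines: HSPA5, the main chaperone of the endoplasmic reticulum, had 2764, 2472 and 2090 CPM in Z5 and 3538, 2878 and 2408 in Z9 (0.27 ± 0.17, SE, edgeR adjusted p = 0.524), so the wells overlapped between the lines, while each Z9 well lay above the Z5 well of the same letter. HYOU1 had 713, 641 and 495 CPM in Z5 and 1032, 766 and 599 in Z9 (0.37, edgeR adjusted p = 0.615), again higher in Z9 at each letter. Both genes were highest in well a of each of these lines. With the letter as a block in all 12 libraries edgeR called 0 of the 23 (HSPA5 adjusted p = 0.373). The block in the Z9 and Z5 libraries alone called 12 higher and 0 lower (HSPA5 edgeR adjusted p = 4.56e-04), beside 1654 of 14933 tested genes. Among 20 p53 targets 19 were above zero and 0 were called (3 at an unadjusted edgeR p under 0.05, 0 by DESeq2). The block in Z9 and Z5 alone called 4 of them higher and 0 lower. Among 36 respiratory chain genes 32 were below zero (50.7% of all tested genes) and 1, CYC1, was called lower (2.78%, beside 1.09% of all tested genes). At an unadjusted edgeR p under 0.05, 8 were lower and 0 higher, beside 8.01% and 6.45% of all tested genes. DESeq2 called 2 lower and 0 higher. In 10 of 36 every Z9 well lay below every Z5 well, as in 13.6% of all tested genes. The block in Z9 and Z5 alone called 6 of the 36 lower and 0 higher, beside 953 lower and 701 higher of 14933 tested genes.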
